A study of Mus musculus with 6 samples.

Results

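The 8 genes described here are pericyte markers: *Cspg4*, *Kcnj8*, *Abcc9*, *Rgs5*, *Higd1b*, *Trpc6*, *Vtn* and *Ednra*. They were taken by name with earlier results of these data known, so the number of calls among them is a description and not a test. All 8 were present among the 24972 gene symbols of the table. They were measured by RNA-Seq of isolated lung ECs (iLECs), which are CD31+ cells pulled out of enzyme-digested lung tissue with anti-CD31 beads. The 3 control samples were labelled PRR (Atp6ap2)fl/Y, the floxed allele, without Cre. The 3 *Atp6ap2* iECKO samples were labelled with the same allele and Cdh5-CreERT2+, a tamoxifen-inducible Cre under control of the *Cdh5* promoter, which is active in ECs. All 6 samples were from mice labelled C57BL/6, from lines that the study's methods describe as mixed CD1 and C57BL/6, which received 100 µg of tamoxifen by mouth on each of postnatal days 1 to 3 and were collected at postnatal day 7 (P7). Cre was directed to ECs and not to pericytes, and since the controls lacked Cre, the presence of Cre and the deletion cannot be told apart.

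Pericytes are mural cells embedded in the basement membrane of capillaries. ECs recruit them with platelet-derived growth factor B, which pericytes sense through PDGFRβ, and they answer to vasoactive signals such as endothelin and angiotensin. In the lung they line the alveolar capillaries, and their known markers include the NG2 proteoglycan, subunits of an ATP-sensitive potassium channel, and regulators of G protein signaling. A bead isolation of ECs can carry along other cells that are attached to vessels. The paper examined purity by immunoblot, a measure of protein and not RNA. It reports VE-cadherin in iLECs only, and αSMA and desmin in the non-EC fraction.

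The values are normalized counts, which are estimated reads per gene scaled by the authors to a common level. Library totals were between 26243878 and 28725799 normalized counts. *Atp6ap2*, the targeted gene, had 7490, 5815 and 5681 normalized counts in control replicates 1 to 3 and 4220, 2336 and 1982 in *Atp6ap2* iECKO replicates 1 to 3, a log2 fold change of -1.22 (adjusted *P* = 0.0306 from limma). The genotypes did not overlap, and *Atp6ap2* iECKO replicate 1 kept the most. Leaving out any of the other 5 libraries took the adjusted *P* value of *Atp6ap2* above 0.05, to between 0.0628 and 0.103, while without *Atp6ap2* iECKO replicate 1 it was 0.0060. All 6 labels give fl/Y, but *Xist*, which is transcribed from an inactive X chromosome, was above 1000 normalized counts in 4 libraries (control replicates 1 and 2, *Atp6ap2* iECKO replicates 1 and 3), so the main results are also given for these 4 alone. The paper states that male and female neonates were analysed, with females as fl/fl, so the fl/Y label may not hold for these 4. Genotypes were compared by limma, after adding 1 to each normalized count and taking log2, over the 14456 genes with at least 10 normalized counts in at least 3 libraries, adjusted by the Benjamini-Hochberg method over all of them. Nothing in the labels says whether each library was 1 mouse or a pool, and *P* values measure the spread between these libraries.

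All 8 pericyte markers passed the filter on low values and all 8 were lower in *Atp6ap2* iECKO iLECs. At an adjusted *P* value below 0.05, 6 fell (*Rgs5*, *Cspg4*, *Higd1b*, *Vtn*, *Ednra* and *Trpc6*), while by the same rule 4.97% of all tested genes were lower, 3.28% were higher and 8.25% changed in either direction. *Kcnj8* and *Abcc9* did not pass. In each of the 8 genes every *Atp6ap2* iECKO library was below every control library, as was the case for 15.0% of all tested genes. Over the 8 genes the log2 fold changes had a median of -1.46, against 0.0049 over all genes tested. Mean levels in *Atp6ap2* iECKO iLECs were between 25.9% (*Rgs5*) and 41.9% (*Kcnj8*) of control. In bulk RNA, fewer cells that make these transcripts in the isolate and less of the transcripts per cell cannot be told apart. Bulk RNA also does not show whether the transcripts came from pericytes or from other cells.

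**Figure D1:**
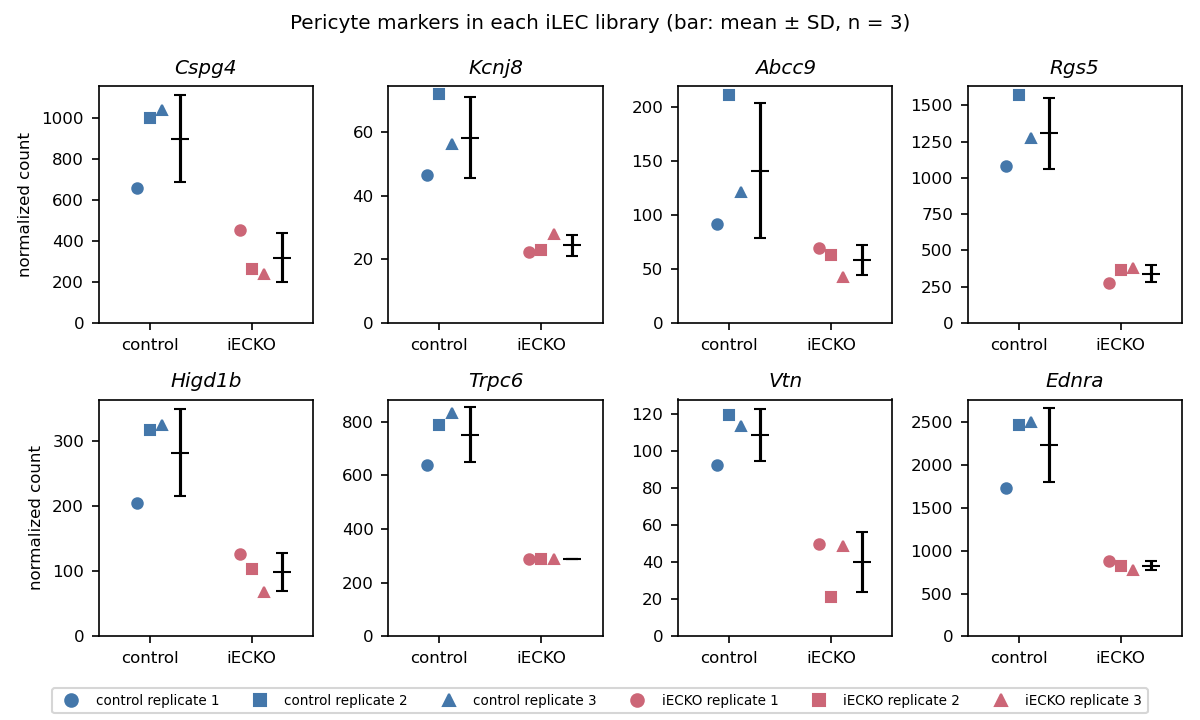
Normalized counts (y axes, from 0) of the 8 pericyte markers in the 3 control and 3 *Atp6ap2* iECKO libraries, with the mean ± SD of each genotype in black. In every panel the 3 *Atp6ap2* iECKO points lie below the 3 control points; the lowest control and the highest *Atp6ap2* iECKO value are closest in ratio in *Abcc9*, at 91.2 and 69.6.

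The markers were expressed at very different levels, compared here as normalized counts per kb of exon. In control iLECs *Ednra* was highest at 407 ± 79.6 (SD, n = 3), followed by *Higd1b* at 334 ± 79.7 and *Rgs5* at 288 ± 53.9, and these 3 neighbors overlapped in their spread. *Trpc6* followed at 149 ± 20.1, then *Cspg4* at 75.5 ± 17.8 and *Vtn* at 53.5 ± 6.98, of which the last 2 overlapped. *Kcnj8* at 22.8 ± 5.03 and *Abcc9* at 16.8 ± 7.43 were lowest and also overlapped. On the same per-length scale the level in control iLECs was 8470 for *Pecam1*, which encodes the CD31 used for the isolation, and 1213 for *Pdgfrb*. In *Atp6ap2* iECKO iLECs *Ednra* stood at 150.2 ± 9.71 and *Higd1b* at 118 ± 34.9, ahead of *Rgs5* at 74.7 ± 12.7 and *Trpc6* at 57.0 ± 0.242.

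**Figure D2:**
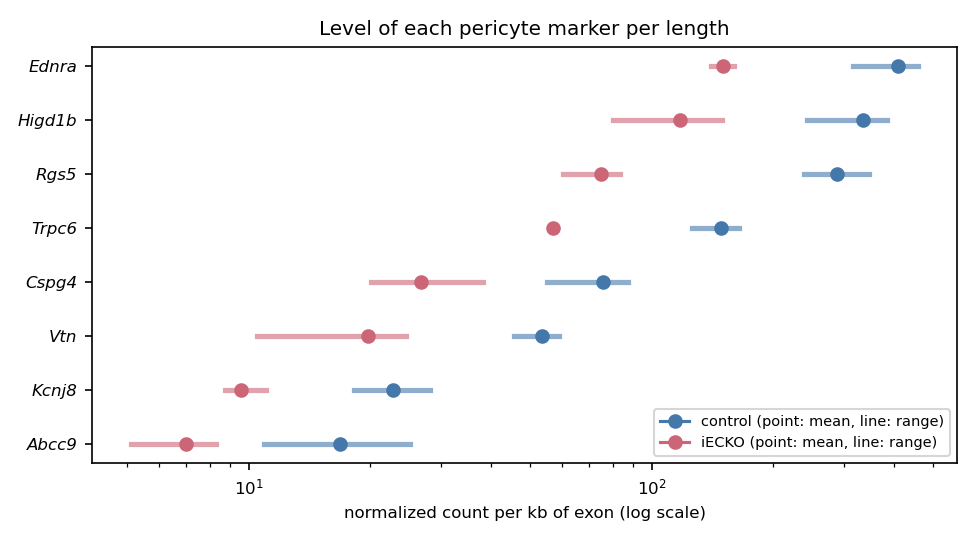
Level of each pericyte marker as normalized counts per kb of exon (x axis, log scale) in control and *Atp6ap2* iECKO iLECs, with the mean as a point and the range of 3 libraries as a line. The genes run from *Abcc9* (16.8 in controls) to *Ednra* (407), and each gene is shifted to the left in *Atp6ap2* iECKO iLECs.

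Among the genes of G protein signaling, *Ednra* encodes the endothelin A receptor, through which mural cells contract to endothelin-1. It lies on chromosome 8 of GRCm38 (77663031 to 77724464, minus strand) and had 1729, 2463 and 2502 normalized counts in control replicates 1 to 3 and 876, 821 and 770 in *Atp6ap2* iECKO replicates 1 to 3. The *Atp6ap2* iECKO libraries were close together, and control replicate 1 was the lowest of the controls. *Ednra* fell with a log2 fold change of -1.42 (95% confidence interval -1.76 to -1.08, adjusted *P* = 0.0073 from limma). *Rgs5*, whose product speeds the shutdown of G protein signals and is a classic pericyte marker, lies on chromosome 1 (169655501 to 169695813, plus strand). It had 1083, 1570 and 1273 normalized counts in the controls and 273, 365 and 380 in the *Atp6ap2* iECKO libraries. *Rgs5* had the largest fall of the 8 genes, with a log2 fold change of -1.94 (-2.35 to -1.53, adjusted *P* = 0.0056), or 3.84-fold, and its lowest control was 2.85 times its highest *Atp6ap2* iECKO library.

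The promoters of *Rgs5*, the gene with the largest fall, and *Trpc6*, the gene with the tightest values in *Atp6ap2* iECKO libraries, are shown. Each is the 250 bases before the RefSeq start site (GRCm38.p6, 5′ to 3′ on the gene's strand). RefSeq promoters were matched for 7 of the 8 markers. Capitals mark matches on either strand to 5 searched motifs, namely the TATA box with the letters TATAAA, the box bound by Sp1 (GC box) with GGGCGG, the core bound by RBPJ, the nuclear partner of Notch, with TGGGAA, the core bound by TEAD factors with GGAATG, and the CArG box bound by serum response factor. The RBPJ and TEAD letters can overlap.
*Rgs5*, chr1:169655251-169655500, plus strand: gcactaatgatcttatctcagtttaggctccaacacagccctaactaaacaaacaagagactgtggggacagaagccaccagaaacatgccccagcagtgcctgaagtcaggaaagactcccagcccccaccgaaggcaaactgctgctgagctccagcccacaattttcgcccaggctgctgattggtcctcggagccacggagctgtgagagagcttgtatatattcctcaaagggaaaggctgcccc
*Trpc6*, chr9:8543892-8544141, plus strand: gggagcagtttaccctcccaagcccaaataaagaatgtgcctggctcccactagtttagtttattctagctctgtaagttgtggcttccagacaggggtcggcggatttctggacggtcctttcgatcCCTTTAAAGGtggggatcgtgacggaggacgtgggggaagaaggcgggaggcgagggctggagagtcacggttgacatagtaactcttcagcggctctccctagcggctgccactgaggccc
The *Rgs5* window held no match to the searched letters, and other spellings of these motifs, such as variants of the TATA box, were not searched. The *Trpc6* window held a CArG box, a motif found in 1.47% of the 32851 promoter windows, as the palindrome CCTTTAAAGG starting 122 bases before the start site. The other 6 matched markers had no CArG box in this window. The exact TATA box letters, found in 12.4% of all windows, occurred in *Vtn* alone of the 7 matched markers. There TATAAA started 135 bases before the start site.

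The next 3 members encode ion channel proteins. *Trpc6* encodes a receptor-operated cation channel that admits calcium, and it lies on chromosome 9 (8544142 to 8680741, plus strand). Its normalized counts were 638, 786 and 833 in the controls and 287.8, 288.0 and 290.0 in the *Atp6ap2* iECKO libraries. The *Atp6ap2* iECKO values were nearly the same, with a coefficient of variation of 0.426% against 13.6% in controls, and the log2 fold change was -1.37 (-1.67 to -1.07, adjusted *P* = 0.0062 from limma).

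*Kcnj8* and *Abcc9* encode the pore (Kir6.1) and the regulatory subunit (SUR2) of the vascular ATP-sensitive potassium channel, which hyperpolarizes mural cells when metabolism falls. The genes are neighbors on the minus strand of chromosome 6, *Kcnj8* from 142564837 to 142571614 and *Abcc9* from 142587862 to 142702315, with 16247 bases between them. *Kcnj8* had 46.5, 71.9 and 56.2 normalized counts in the controls and 22.2, 22.8 and 28.1 in the *Atp6ap2* iECKO libraries. *Abcc9* had 91.2, 210.7 and 120.8 in the controls and 69.6, 63.1 and 42.8 in the *Atp6ap2* iECKO libraries. These were the lowest per-length levels of the 8 genes, and control replicate 2 stood apart in *Abcc9*. Their log2 fold changes were -1.21 (-1.91 to -0.50, adjusted *P* = 0.0510 from limma) for *Kcnj8* and -1.19 (-2.005 to -0.39, adjusted *P* = 0.0795) for *Abcc9*, so neither passed the threshold. The ratio of *Abcc9* to *Kcnj8* was 2.35 ± 0.513 (SD, n = 3) in controls and 2.47 ± 0.840 in *Atp6ap2* iECKO iLECs. Of the other channel family members, *Kcnj11* had at most 7.4 normalized counts in any library and *Abcc8* was listed at 0 in all 6. The promoters of the neighbors are shown because each gene has its own start site.
*Kcnj8*, chr6:142571615-142571864, minus strand: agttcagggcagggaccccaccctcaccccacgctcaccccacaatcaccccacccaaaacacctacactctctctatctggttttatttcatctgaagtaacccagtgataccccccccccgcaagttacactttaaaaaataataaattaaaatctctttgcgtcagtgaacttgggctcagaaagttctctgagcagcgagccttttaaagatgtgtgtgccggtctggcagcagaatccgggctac
*Abcc9*, chr6:142702275-142702524, minus strand: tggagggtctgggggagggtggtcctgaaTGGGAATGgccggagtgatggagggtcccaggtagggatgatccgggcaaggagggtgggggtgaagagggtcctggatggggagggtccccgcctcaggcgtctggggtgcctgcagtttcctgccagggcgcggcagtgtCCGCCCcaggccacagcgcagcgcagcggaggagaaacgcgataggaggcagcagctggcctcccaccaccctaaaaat
The *Kcnj8* window held no match to the searched letters of the 5 motifs and was 49.2% G and C. The *Abcc9* window was 66.8% G and C and held a GC box on the opposite strand, which *Cspg4* also had and which was present in 32.7% of all windows. This window was placed before the RefSeq start site, which lies inside the *Abcc9* span given above from the GENCODE annotation. The end of the window next to the start site therefore lies within that span. It also held overlapping RBPJ and TEAD cores (TGGGAATG), each of which occurred in 2 of the 7 matched markers, *Abcc9* and *Vtn*. In all windows the RBPJ core occurred in 21.6% and the TEAD core in 12.6%.

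The last members act at the cell surface and in the matrix. *Cspg4* encodes NG2, a proteoglycan of the pericyte surface, on chromosome 9 (56865033 to 56899870, plus strand). It had 657, 1003 and 1042 normalized counts in the controls and 456, 262 and 240.5 in the *Atp6ap2* iECKO libraries. *Atp6ap2* iECKO replicate 1 was the highest of its genotype, and the log2 fold change was -1.52 (-2.15 to -0.90, adjusted *P* = 0.0191 from limma). *Vtn* encodes vitronectin, a matrix protein that binds integrins, on chromosome 11 (78499091 to 78502324, plus strand). Its normalized counts were 92.6, 119.6 and 113.5 in the controls and 49.99, 21.3 and 48.8 in the *Atp6ap2* iECKO libraries. *Atp6ap2* iECKO replicate 2 stood apart as the lowest, and the log2 fold change was -1.50 (-2.34 to -0.66, adjusted *P* = 0.0447). This call did not hold with any library left out, when the adjusted *P* value of *Vtn* from limma was between 0.0515 and 0.129. *Higd1b*, a member of the HIG1 family of small mitochondrial proteins and a known marker of lung pericytes, lies on chromosome 11 (102835849 to 102838040, plus strand). It had 205, 318 and 326 normalized counts in the controls and 127, 104 and 68.0 in the *Atp6ap2* iECKO libraries. *Higd1b* fell with a log2 fold change of -1.51 (-2.17 to -0.85, adjusted *P* = 0.0221).

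The 95% confidence intervals of the 8 log2 fold changes all overlapped. Ratios of 2 genes within a library were used to ask whether the markers moved alike, over 10 ratios chosen with the values known. *Ednra* to *Trpc6* was 2.95 ± 0.217 (SD, n = 3) against 2.85 ± 0.195 in *Atp6ap2* iECKO iLECs, with overlapping libraries. *Rgs5* to *Trpc6* was 1.74 ± 0.237 in controls and 1.18 ± 0.197 in *Atp6ap2* iECKO iLECs, with no overlap (*P* = 0.1 in a two-sided exact permutation test, which 3 against 3 libraries cannot go below, and 0.333 adjusted over the 10 ratios). The ratio of *Rgs5* to *Rgs4*, a relative of the same family, was 1.54 ± 0.235 against 1.13 ± 0.139, also with no overlap and the same *P* values by the exact test. *Rgs5* thus stood lower relative to *Trpc6* in each *Atp6ap2* iECKO library, but its ratio to *Cspg4* overlapped between genotypes, at 1.48 ± 0.226 and 1.19 ± 0.521. Its ratios to *Pdgfrb* (0.198 ± 0.0235 in controls, 0.156 ± 0.0539 in *Atp6ap2* iECKO iLECs) and to *Cox4i2* (1.82 ± 0.310 and 1.69 ± 0.484) overlapped too. So did the ratios of *Cspg4* to *Pdgfrb* and of *Trpc6* to *Trpc1*.

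The size of the fall differed between libraries. Against the control mean, the median log2 ratio of the 8 genes was -1.22 in *Atp6ap2* iECKO replicate 1, -1.41 in replicate 2 and -1.56 in replicate 3, while *Atp6ap2* stood at 4220, 2336 and 1982. In *Atp6ap2* iECKO replicate 1 the members ranged from -2.24 (*Rgs5*) to -0.92 (*Abcc9*), in replicate 2 from -2.29 (*Vtn*) to -1.06 (*Abcc9*), and in replicate 3 from -2.01 (*Higd1b*) to -1.004 (*Kcnj8*). The gene with the largest fall was therefore different in each library. *Atp6ap2* iECKO replicate 1 had the highest value of its genotype in 5 of the 8 genes, but the lowest of *Rgs5*, *Kcnj8* and *Trpc6*. Among controls, replicate 1 was the lowest in all 8 genes (median log2 ratio -0.32), and replicates 2 and 3 had the highest value in 4 genes each (0.19 and 0.11).

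The number of calls depended on single libraries. With replicate 2 or 3 of either genotype left out, 3 of the 8 genes passed, and with replicate 1 of either genotype left out, 5 passed. Over all tested genes, 658 of 14298 were lower without control replicate 1, 365 of 14270 without replicate 2 and 205 of 14283 without replicate 3. For the *Atp6ap2* iECKO replicates left out in the same order, 620 of 14284, 218 of 14336 and 178 of 14290 were lower. *Rgs5*, *Trpc6* and *Ednra* passed in each of these 6 fits, with adjusted *P* values of at most 0.0404, 0.0404 and 0.0411 (limma). In the 4 libraries with *Xist* above 1000, 0 of 8 passed after adjustment by limma, as did 0 of all genes tested, and 8 of 8 had an unadjusted *P* value below 0.05, as did 2196 of all 14094 genes tested there. The median log2 fold change there was -1.31, and each of the 8 genes was lower, from -2.01 (*Rgs5*) to -1.08 (*Vtn*).

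Other pericyte genes, from a list of 24, were mostly lower too. Of 21 tested, 16 fell, 0 rose and 5 did not pass, with a median log2 fold change of -1.48. By the same rule 4.97% of all tested genes fell and 3.28% rose. *Pdgfrb*, the receptor by which pericytes are recruited, had 5212, 7285 and 7430 normalized counts in controls and 2881, 2061 and 1934 in *Atp6ap2* iECKO libraries (log2 fold change -1.54, adjusted *P* = 0.0083 from limma). The Notch receptor gene *Notch3* (-1.55) and the Notch target *Heyl* (-1.60) fell, as did *Des* (-1.69), the intermediate filament of muscle and pericytes. Both subunits of the nitric oxide receptor, *Gucy1a1* (-1.53) and *Gucy1b1* (-1.48), fell together with *Pde5a* (-1.40), which breaks down the cyclic GMP they make. The respiratory chain isoforms *Cox4i2* (-1.81) and *Ndufa4l2* (-1.55) and the angiotensin receptor *Agtr1a* (-1.44) also fell. *Postn* (-1.57), *Cd248* (-1.61), *P2ry14* (-1.57), *Gja4* (-1.14), a connexin that arterial ECs also make, *Itga1* (-1.09) and *Ebf1* (-0.74) completed the 16.

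The 5 genes that did not pass were *Mcam* (log2 fold change 0.10, 95% confidence interval -0.19 to 0.40), *Tbx2* (-0.22, -0.48 to 0.04), *Foxc1* (0.22, -0.32 to 0.75), *Lamc3* (0.17, -0.49 to 0.84) and *Anpep* (0.39, -0.28 to 1.06). *Mcam* encodes CD146, which ECs also make, and its level per kb of exon in control iLECs was 11088, far above those of the 8 markers. *Foxd1*, *Adcyap1r1* and *Atp13a5* were too low to be tested, and *Adcyap1r1* was listed at 0 in all 6 libraries. In the 4 libraries with *Xist* above 1000, 0 of the 21 passed after adjustment by limma and 16 had an unadjusted *P* value below 0.05 in either direction, as did 2196 of all 14094 genes tested.

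**Figure D3:**
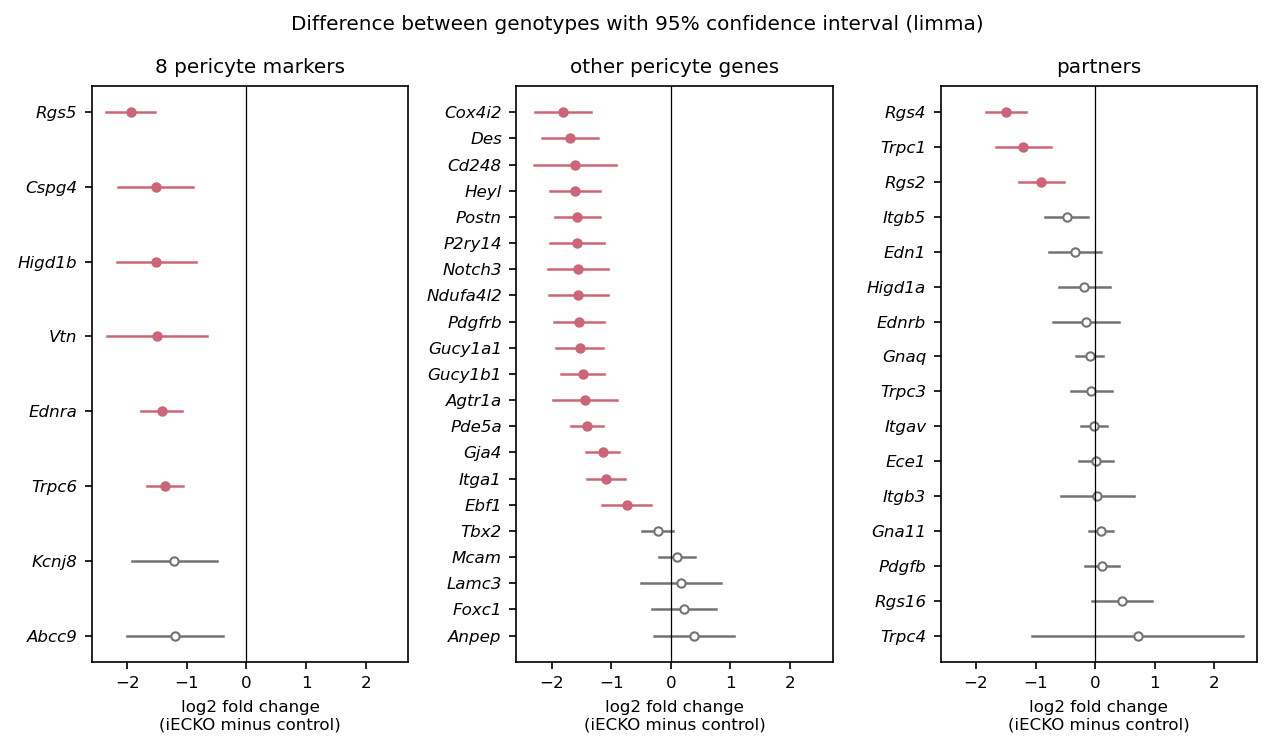
Log2 fold change (x axis, *Atp6ap2* iECKO minus control) with its 95% confidence interval from limma for the 8 pericyte markers, 21 other pericyte genes and 16 partner genes. Filled red points have an adjusted *P* value below 0.05. They comprise 6 of 8, 16 of 21 and 3 of 16 genes, while 8.25% of all tested genes passed.

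Partners and relatives of the markers, such as ligands, channel subunits and family members, made a further list. Of 16 tested on a list of 18, 3 fell, 0 rose and 13 did not pass, with a median log2 fold change of -0.08. Over all tested genes 4.97% fell and 3.28% rose. The 3 were *Rgs4* (-1.50, adjusted *P* = 0.0070 from limma) and *Rgs2* (-0.90, 0.0194), relatives of *Rgs5*, and *Trpc1* (-1.21, 0.0154), a channel of the *Trpc6* family. Without control replicate 3 or *Atp6ap2* iECKO replicate 3, 1 of the 16 fell. In the 4 libraries with *Xist* above 1000, 0 passed in limma and 4 had an unadjusted *P* value below 0.05 in either direction, as did 2196 of all 14094 genes tested. On the endothelin axis, the ligand gene *Edn1* had a log2 fold change of -0.34 (95% confidence interval -0.78 to 0.09), its processing enzyme *Ece1* 0.01 (-0.28 to 0.30) and the B receptor *Ednrb*, which ECs make, -0.15 (-0.70 to 0.40). The ratio of *Ednra* to *Ednrb* was 0.384 ± 0.171 (SD, n = 3) in controls and 0.148 ± 0.0230 in *Atp6ap2* iECKO iLECs, with no overlap (*P* = 0.1 by the exact permutation test, 0.333 adjusted over the 10 ratios). *Pdgfb*, the endothelial ligand for PDGFRβ, had 0.11 (-0.17 to 0.40), and the vitronectin receptor subunits *Itgav* and *Itgb3* had -0.02 and 0.04, none past the threshold. The subunit *Itgb5* had -0.48 (-0.84 to -0.12, adjusted *P* = 0.109 from limma) and did not pass either. Its *Atp6ap2* iECKO libraries were all below its controls, as was the case for 15.0% of all tested genes. *Higd1a*, the relative of *Higd1b* found in many cell types, had -0.18 (-0.61 to 0.25).

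Many, but not all, markers of other mesenchymal cells were lower as well. Of 15 fibroblast markers tested, 11 fell, 0 rose and 4 did not pass, with a median log2 fold change of -1.50. Over all tested genes 4.97% fell and 3.28% rose. The 11 included *Pdgfra* (-1.35), *Tcf21* (-1.47) and *Col1a1* (-1.62). The 4 that did not pass were *Pi16* (1.12, 95% confidence interval 0.33 to 1.91), in which every *Atp6ap2* iECKO library was above every control (adjusted *P* = 0.0902 from limma), *Mfap5* (0.55, -0.14 to 1.24), *Dcn* (-0.59, -2.10 to 0.92) and *Col14a1* (-0.51, -0.87 to -0.14). The summed normalized counts of the list ran from 83917 to 129069 in controls, against 29527 to 42222 in *Atp6ap2* iECKO libraries. *Lum* was too low to be tested. With control replicate 3 left out 5 fibroblast markers fell, with *Atp6ap2* iECKO replicate 2 left out 6 fell, and with its replicate 3 left out 5 fell. Of 13 smooth muscle markers tested, 4 fell (*Myh11*, *Tagln*, *Mylk* and *Hhip*), beside the same 4.97% of all tested genes. Of the others, 0 rose and 9 did not pass, and the median over the 13 was -1.13. Among the 9, *Acta2* (-1.45, adjusted *P* = 0.0504 from limma), *Lmod1* (-1.58, 0.0567), *Synpo2* (-1.44, 0.0717) and *Actg2* (-1.72, 0.0756) had every *Atp6ap2* iECKO library below every control. *Cnn1* (-1.13), *Lgr6* (-0.96) and *Myocd* (-0.68) overlapped between genotypes. *Smtn*, at 5094 to 6246 normalized counts in controls against 4725 to 5819, had -0.07 (-0.33 to 0.19). *Pln* had 1.08 (-0.23 to 2.39) with every *Atp6ap2* iECKO library above every control. Of the 13, 8 lay below every control and 1 above, against 15.0% and 14.7% of all tested genes. The sums of the smooth muscle list ran from 18584 to 25030 in controls, against 14070 to 15453 in *Atp6ap2* iECKO libraries. Without the same 3 libraries in turn, 0 smooth muscle markers passed in limma. Each time 8 had an unadjusted *P* value below 0.05 in either direction, as did 3056 of 14283, 2646 of 14336 and 2442 of 14290 genes tested. Without control replicate 1, 7 smooth muscle markers fell. In the 4 libraries with *Xist* above 1000, 0 of 14 fibroblast and 0 of 12 smooth muscle markers tested passed in limma. There 13 and 7 had an unadjusted *P* value below 0.05 in either direction, as did 2196 of all 14094 genes tested. For comparison, the 8 pericyte markers summed to 4542 to 6542 normalized counts in controls, against 1868 to 2162 in *Atp6ap2* iECKO libraries. What part these cell types had in the values of the pericyte markers was not tested.

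The 15 endothelial markers had a median log2 fold change of 0.04, with 0 past the threshold in limma and 1 with an unadjusted *P* value below 0.05. Their sums ran from 316572 to 399493 in controls, against 341736 to 386906 in *Atp6ap2* iECKO libraries. Of 10 epithelial markers, 1 rose (*Scgb1a1*, 1.75), as did 3.28% of all tested genes. The epithelial median was -0.11, with a sum in control replicate 3 of 67118 against 24224 to 36393 elsewhere. The median was 0.36 over 10 leukocyte markers, of which 0 passed in limma, and 0 had an unadjusted *P* value below 0.05. Of the mesothelial markers, *Upk3b*, *Wt1* and *Lrrn4* were too low to be tested and *Msln* (0.10) and *Krt19* (-0.10) did not pass.

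**Figure D4:**
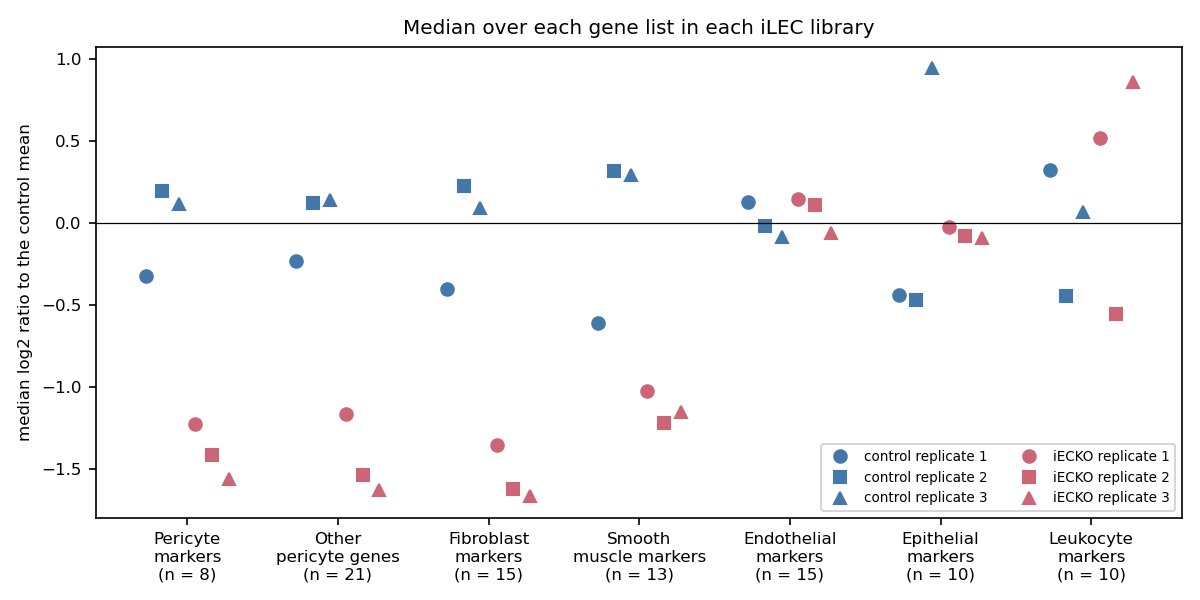
Median log2 ratio to the control mean (y axis) over each gene list in each of the 6 libraries, with n the number of genes tested. The *Atp6ap2* iECKO libraries lie between -1.56 and -1.22 for the pericyte markers and between -1.67 and -1.35 for the fibroblast markers, and between -0.06 and 0.15 for the endothelial markers.

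The genes whose pattern over the 6 libraries was most like the mean of the 8 markers were sought among 11316 genes with a mean of at least 100 normalized counts. By Pearson's r over 6 libraries, as a description, the top 8 included *Gucy1a1*, *Enpep*, *Mrc2*, *Plxnb2*, *Lama2*, *Col3a1* and *Ddr2*, with r from 0.997 to 0.999. The log2 fold changes of those named ran from -1.84 for *Enpep*, which encodes an aminopeptidase that cleaves angiotensin II, to -0.45 for *Plxnb2*. The points of each r were the same 6 libraries, 3 of each genotype. When the genotype means were taken out first, *Enpep*, *Ddr2* and *Gucy1a1* were again among the top 8, beside genes such as *Arhgap1* (log2 fold change -0.01) that did not pass the test. On this second measure the members themselves ranged from 0.331 (*Rgs5*) to 0.929 (*Ednra*) with their own mean, which includes each of them. *Arhgap1*, not a member, reached 0.999, so these values cannot rank how closely the members followed the group.

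Annotated overlaps touched 3 of the 8 genes, and the library kit named in the labels does not keep strand. *Abcc9* shares 158 exonic bases with the antisense gene *5330439B14Rik*, which was listed at 0 in all 6 libraries, and *Ednra* shares 91 with *4933431K23Rik*, a transcript on the other strand that was not analysed here. *Trpc6* overlaps *Gm32014* without a shared exonic base. Reads from either strand cannot be told apart at the shared bases.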

How the data were processed

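RNA-Seq was performed on iLECs from 3 control and 3 *Atp6ap2* iECKO samples. The authors aligned reads to mm10 in BaseSpace (alignment tool 2.0.1) and quantified genes there (differential expression tool 1.0.1), with an annotation not given in the sources used here. The deposited signal is a normalized count per gene and library, although the labels call it raw: it includes fractions, and each library's median ratio to the geometric mean was 1.0036. Only 25.5% to 51.4% of values below 20 were whole multiples (within 0.01) of the commonest low value, so reads were not recovered and a count model was not used. That low value ran from 2.26 to 2.34 in controls, against 1.51 to 1.87 in *Atp6ap2* iECKO libraries.

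Genes with at least 10 normalized counts in at least 3 libraries were tested with limma 3.58.1 (R 4.3.3, mean-variance trend) on log2 of the value plus 1, which understates the change of low genes. In simulated data for this comparison (14258 genes), 85.9% of seeded log2 changes of 2 and 58.8% of changes of 1 were called, 0 in the wrong direction. Coordinates are from GENCODE M21 (GRCm38), promoters from RefSeq (GRCm38.p6). Named genes were the 8 markers, *Atp6ap2*, the fixed lists, and the 8 genes of most similar pattern; some results for single genes are not reported here. Members and lists were chosen with earlier results of these data known. Alternatives changed the scaling, filter, pseudocount, variance model and libraries, and the fit to the 4 libraries with high *Xist* was added after the data were seen. Ratios of 2 genes were also chosen with the values known.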

Additional observations from a re-analysis of the deposited data

How the results depend on the processing

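Over 17 alternatives the median log2 fold change of the 8 markers stayed between -1.60 and -1.31 and each of the 8 genes stayed lower, so the direction held while calls near the threshold did not. Labels share replicate numbers, and deviations of same-numbered libraries correlated by 0.25, 0.11 and 0.08. Their mean was 0.148, against -0.074 over pairs with different numbers. Whether the numbers pair the samples was not settled, and the main fit did not use them. With the replicate block 6 of the 8 markers passed, with log2 fold changes as without it, and 670 genes were higher and 838 lower; the block changed no call among the 8. *Vtn* did not pass with library total scaling (log2 fold change -1.46), with no filter (-1.50) or with an *Xist* covariate (-1.50, when 248 genes were higher). *Kcnj8* passed with upper quartile scaling (-1.20), a pseudocount of 5 (-1.09), robust empirical Bayes (-1.21) and no trend (-1.21). With at least 50 normalized counts required in 3 libraries *Kcnj8* was not tested. Without the mean-variance trend *Cspg4* (-1.52), *Higd1b* (-1.51), *Vtn* (-1.50) and *Atp6ap2* (-1.22) did not pass, 69 genes were higher and 235 lower against 474 and 719, and 1 partner, 0 smooth muscle (9 at an unadjusted *P* value below 0.05) and 6 fibroblast markers fell. With each library left out, 3 to 5 markers, 13 to 16 other pericyte genes, 1 to 3 partners, 0 to 7 smooth muscle and 5 to 11 fibroblast markers fell, and 28 to 460 genes were higher and 178 to 658 lower. The log2 fold change then ranged from -1.81 to -1.35 for *Cspg4*, -1.73 to -1.26 for *Higd1b*, -1.71 to -1.11 for *Vtn*, -1.35 to -1.05 for *Kcnj8*, -1.46 to -0.86 for *Abcc9*, -2.07 to -1.79 for *Rgs5*, -1.48 to -1.29 for *Trpc6*, -1.59 to -1.33 for *Ednra* and -1.54 to -0.999 for *Atp6ap2*. The 4 libraries with *Xist* above 1000, an alternative chosen after seeing the data, gave 0 genes past the threshold in limma (2196 at an unadjusted *P* value below 0.05), 0 of them in any list. The values there were -1.29 (*Cspg4*), -2.01 (*Rgs5*), -1.45 (*Higd1b*), -1.29 (*Trpc6*), -1.08 (*Vtn*), -1.33 (*Ednra*) and -1.19 (*Atp6ap2*), and fewer libraries entered that fit. Read depth is unknown, so no counting error is given, and *Kcnj8*, *Vtn* and *Abcc9* have the lowest normalized counts of the 8.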
